A study of Mus musculus with 10 samples.

Results

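CD40 and NF-kB pathway genes are described here as 10 genes chosen by name from a table of 55492 gene symbols: Cd40, Traf1, Birc3, Nfkb1, Nfkb2, Rel, Relb, Nfkbia, Tnfaip3 and Slamf1. Each had 1 row in the table, and all 10 passed the filter on low counts, which left 21010 genes to test. RNA-seq had been done on mouse splenic B cells of 2 genotypes at 2 stages. KO mice carried homozygous floxed Pcbp1 alleles and Mb1-Cre, a Cre recombinase expressed from the Cd79a locus and so active in the B lineage from early bone marrow stages on. WT mice served as controls, and the labels do not say whether they carried Cre. The groups were iGCB KO (3 libraries), iGCB WT (3), naive KO (2) and naive WT (2). Naive cells were primary B cells taken on day 0. The iGCB cells, for induced germinal center B cells, had been cultured for 4 days on 40-LB feeders, a fibroblast line that presents CD40 ligand and BAFF. The labels give neither age, sex nor strain of the mice and do not say that each library came from its own animal, so p-values measure the spread between these libraries.

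CD40 is a receptor of the TNF receptor family on B cells, and its ligation recruits TRAF proteins and the cIAP ubiquitin ligases. Downstream, the canonical branch frees dimers of p50 with RelA or c-Rel from the inhibitor IkBa, and the alternative branch stabilises the kinase NIK and matures p100, the product of Nfkb2, to p52, the partner of RelB. Many NF-kB target genes encode parts of the pathway itself, among them its inhibitors. In germinal center B cells the pathway is known to be low in most cells and active where T cell help through CD40 reaches them.

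Libraries held 33400672 to 63576147 counts. The targeted gene Pcbp1 stood at 3.71, 1.96 and 2.59 CPM, counts scaled to the TMM-adjusted library total, in iGCB KO, against 148, 327 and 326 CPM in iGCB WT, and at 4.33 and 0.448 CPM in naive KO, against 152 and 83.9 CPM in naive WT. All 8 B cell markers had counts in every library, with summed levels of 4293 to 5351 CPM in iGCB and 6983 to 9823 CPM in naive libraries, and Cd79a, whose locus carries Mb1-Cre, averaged 390.1 CPM in iGCB KO against 795 CPM in iGCB WT and 423 CPM in naive KO against 1279.8 CPM in naive WT. The 7 germinal center markers summed to 1663 to 2469 CPM in iGCB against 301 to 535 CPM in naive libraries. Markers of other cells moved with the stage. The 10 T cell markers summed to 2.62 to 5.97 CPM in iGCB and 18.0 to 57.3 CPM in naive libraries. In the same order, the 11 myeloid markers summed to 30.1 to 97.3 CPM and 139 to 662 CPM. The 10 fibroblast markers, 9 of which passed the filter on low counts, summed to 325 to 452 CPM and 3.11 to 22.9 CPM. Most of the fibroblast sum was Thy1, at a mean of 295 CPM in iGCB KO and 355 CPM in iGCB WT, while Col1a1 averaged 16.9 and 20.9 CPM there. The 10 markers of the immediate early response, which handling of cells can induce, summed to 370 to 593 CPM in iGCB and 3949 to 6819 CPM in naive libraries. The part of these markers in the results between stages was not tested. Naive KO 1 and naive WT 1 had 1902 and 1441 CPM of Xist, against at most 2.59 CPM in the other 8 libraries, so the naive groups each hold 1 female and 1 male library. The iGCB libraries had at most 0.417 CPM and were all male by this measure. Comparisons between stages thus set male libraries against groups of both sexes.

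The promoters of 4 members hold letters of the kappaB consensus, the DNA motif known for NF-kB, and they are shown because these genes encode subunits or inhibitors of the pathway. RefSeq promoter windows of GRCm38.p6, from 250 bases before to 50 bases after an annotated start, were at hand for 7 of the 10 members, namely Nfkb2, Rel, Nfkbia, Tnfaip3, Traf1, Birc3 and Slamf1. The kappaB consensus, searched on both strands, occurred in a window of Nfkb2, Rel, Nfkbia and Tnfaip3, which is 57.1% of those 7 genes, against 5.14% of 27025 symbols with a window. The narrower form GGGANTTTCC occurred in 2 of the 7, Nfkb2 (in windows of other starts than the printed one) and Nfkbia, against 0.466% of all symbols. The 250 bases before 1 start of each are printed 5' to 3' on the gene's strand, with kappaB matches in capitals, beside the same stretch of Slamf1, which held no match. Nfkb2 lies at chr19:46304487-46304736 on the plus strand, Rel at chr11:23770970-23771219 on the minus strand, Nfkbia at chr12:55492648-55492897 on the minus strand, Tnfaip3 at chr10:19015411-19015660 on the minus strand, and Slamf1 at chr1:171766882-171767131 on the plus strand.
Nfkb2: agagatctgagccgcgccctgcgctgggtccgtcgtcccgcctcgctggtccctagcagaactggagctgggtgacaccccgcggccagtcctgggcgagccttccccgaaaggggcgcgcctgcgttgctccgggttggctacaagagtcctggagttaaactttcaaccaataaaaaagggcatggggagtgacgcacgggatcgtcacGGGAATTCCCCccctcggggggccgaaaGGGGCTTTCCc
Rel: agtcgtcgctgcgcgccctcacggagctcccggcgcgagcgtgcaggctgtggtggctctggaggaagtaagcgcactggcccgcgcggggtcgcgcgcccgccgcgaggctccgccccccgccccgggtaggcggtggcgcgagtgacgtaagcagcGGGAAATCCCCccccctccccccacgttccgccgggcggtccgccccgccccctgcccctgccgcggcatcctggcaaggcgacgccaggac
Nfkbia: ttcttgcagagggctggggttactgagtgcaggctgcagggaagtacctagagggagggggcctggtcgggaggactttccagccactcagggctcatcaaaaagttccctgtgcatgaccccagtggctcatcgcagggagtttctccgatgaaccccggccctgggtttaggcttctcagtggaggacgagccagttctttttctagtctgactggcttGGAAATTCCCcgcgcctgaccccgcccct
Tnfaip3: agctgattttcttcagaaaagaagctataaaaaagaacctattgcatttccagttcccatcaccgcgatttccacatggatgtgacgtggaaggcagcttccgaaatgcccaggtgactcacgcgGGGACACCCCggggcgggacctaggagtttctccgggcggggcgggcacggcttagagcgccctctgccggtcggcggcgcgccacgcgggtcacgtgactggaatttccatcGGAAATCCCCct
Slamf1: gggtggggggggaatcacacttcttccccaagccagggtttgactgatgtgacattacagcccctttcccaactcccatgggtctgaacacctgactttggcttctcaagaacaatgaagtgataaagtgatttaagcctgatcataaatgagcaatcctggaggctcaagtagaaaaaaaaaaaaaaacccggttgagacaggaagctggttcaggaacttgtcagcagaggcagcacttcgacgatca
In Nfkb2 the matches begin 39, 38 and 11 bases before the start, and the first pair overlap, as do those of Rel at 92 and 91 bases. Nfkbia has its match 29 bases before the start on the other strand, which is also of the narrower form, and Tnfaip3 has matches at 125 and 12 bases. A match describes the letters in the window and is not a measured binding site.

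The member levels differed widely within a group once counts were divided by exonic length (GENCODE M21). That length merges all annotated exons of a gene, from 1610 bases for Nfkbia to 12061 for Nfkb1, and can exceed that of the transcripts present. The order of different genes thus depends on the annotation. In iGCB WT cells Nfkb2, Nfkb1 and Nfkbia were the most abundant, at 75.0 ± 13.6, 73.2 ± 5.26 and 71.2 ± 7.50 CPM per kilobase (SD, n = 3), and their ranges overlapped. Rel at 49.9 ± 7.51, Tnfaip3 at 44.5 ± 6.92, Birc3 at 37.8 ± 4.61 and Traf1 at 25.7 ± 6.85 CPM per kilobase followed, each within the summed SDs of its neighbour in that order except for Birc3 and Traf1. Cd40 at 14.5 ± 1.78, Relb at 8.04 ± 1.58 and Slamf1 at 3.78 ± 0.28 CPM per kilobase were lowest and separate from each other. The iGCB KO cells had Nfkbia at 86.5 ± 11.3, Nfkb2 at 81.4 ± 5.64 and Nfkb1 at 67.9 ± 2.64 CPM per kilobase on top and the other 7 genes in the order of iGCB WT. In naive KO cells the order was led by Rel at 109 ± 18.8 and Nfkbia at 99.2 ± 19.2 CPM per kilobase, and in naive WT cells by Rel at 137 ± 78.1 and Nfkbia at 101 ± 11.1 (SD, n = 2 each), pairs that differ by less than their SDs. Traf1 and Slamf1 were the lowest in both and lay within their SDs, with Traf1 at 10.2 ± 0.53 and Slamf1 at 10.4 ± 0.51 CPM per kilobase in naive KO, and Traf1 at 5.66 ± 1.32 and Slamf1 at 7.17 ± 1.05 in naive WT.

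**Figure D1:**
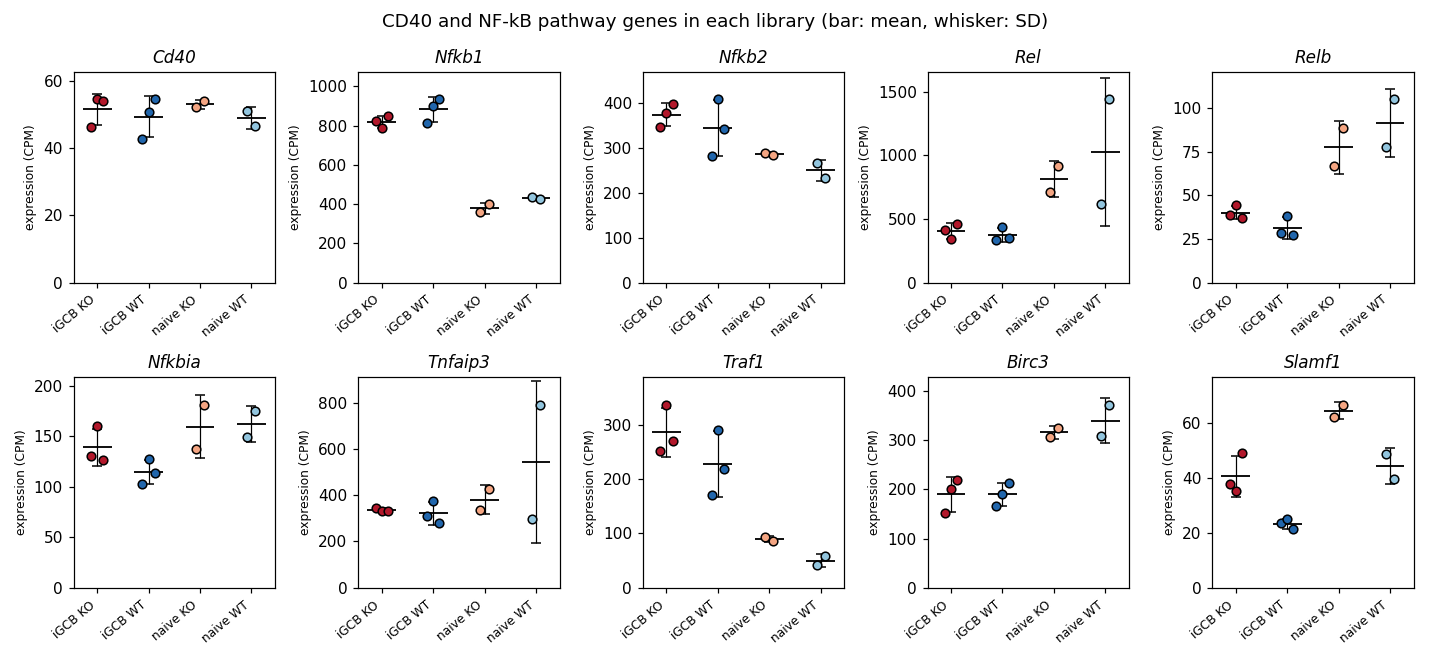
Expression of the 10 members in CPM on a linear axis for every library, with points for libraries, a bar at the group mean and whiskers of 1 SD (iGCB KO and iGCB WT n = 3, naive KO and naive WT n = 2). Nfkb1 and Traf1 sit higher in iGCB than in naive libraries of both genotypes, Rel, Relb, Birc3 sit lower, Cd40 is level, and the 3 iGCB KO points of Slamf1 lie above the 3 iGCB WT points.

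Most members differed between iGCB and naive cells. In KO cells 2 members rose (Nfkb1 and Traf1) and 4 fell (Rel, Relb, Birc3 and Slamf1) by edgeR's quasi-likelihood test at an adjusted p of 0.05, where 24.8% of all genes tested were higher and 31.4% were lower. Within WT cells 3 rose (Nfkb1, Nfkb2 and Traf1) and 5 fell (Rel, Relb, Nfkbia, Birc3 and Slamf1), with 24.7% of all genes higher and 31.7% lower. Most genes tested thus changed between stages, members or not. The median log2 fold change was -0.19 over the members and -0.26 over all genes in KO, and -0.63 over the members and -0.25 over all genes in WT. Bulk RNA cannot tell fewer cells of a type from less RNA per cell, and CPM gives shares of a library rather than amounts per cell.

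Cd40 itself (ENSMUSG00000017652, chr2:165055627-165072948 in mm10, plus strand), the receptor that the feeders engage, did not pass the test at either genotype. Its level was 46.3, 54.6 and 54.0 CPM in iGCB KO, 42.7, 50.9 and 54.6 CPM in iGCB WT, 52.2 and 54.1 CPM in naive KO, and 51.2 and 46.7 CPM in naive WT. The stages overlapped within each genotype. The iGCB minus naive difference was -0.04 on the log2 scale in KO (95% interval -0.40 to 0.32) and 0.01 in WT (-0.35 to 0.37).

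Traf1, a TRAF adaptor that binds TRAF2 and the cIAPs and is a known NF-kB target, rose most (chr2:34941750-34961772, minus strand). It had 252, 337 and 269.6 CPM in iGCB KO and 171, 291 and 219 CPM in iGCB WT, against 93.0 and 86.4 CPM in naive KO and 41.7 and 58.1 CPM in naive WT. Every iGCB library lay above every naive library. The log2 fold change of iGCB over naive was 1.67 in KO (SE 0.25, adjusted p = 0.000273 by edgeR's quasi-likelihood test), a 3.19-fold rise, and 2.18 in WT (SE 0.26, adjusted p = 5.36e-05), a 4.55-fold rise. Birc3, which encodes cIAP2, a ubiquitin ligase of the receptor complex, fell (chr9:7848699-7873186, minus strand). Its libraries held 151, 199.6 and 219 CPM in iGCB KO and 166, 191 and 212 CPM in iGCB WT, below the 306 and 325 CPM of naive KO and the 307 and 372 CPM of naive WT. The fall was 1.66-fold in KO (log2 value -0.73, SE 0.19, adjusted p = 0.00680) and 1.79-fold in WT (-0.84, SE 0.19, adjusted p = 0.00315).

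Among the subunit genes, Nfkb1 and Rel moved in opposite directions. Nfkb1, the gene of p105 and p50 (chr3:135584655-135691547, minus strand), stood at 823, 786 and 849.6 CPM in iGCB KO and 812, 903 and 934 CPM in iGCB WT, against 360.1 and 399 CPM in naive KO and 438 and 425 CPM in naive WT. It rose 2.16-fold in KO (log2 value 1.11, SE 0.15, adjusted p = 0.000157) and 2.05-fold in WT (1.03, SE 0.15, adjusted p = 0.000233), with every iGCB library above every naive one. Rel, the gene of c-Rel, which lymphocytes use strongly (chr11:23736847-23770970, minus strand), had 409.9, 341 and 463 CPM in iGCB KO and 335, 437 and 346 CPM in iGCB WT. Its naive libraries held 714 and 912 CPM in KO and 614 and 1439 CPM in WT, so that naive WT 2 was far above naive WT 1. Rel fell 2.01-fold in KO (log2 value -1.01, SE 0.30, adjusted p = 0.0150) and 2.75-fold in WT (-1.46, SE 0.30, adjusted p = 0.00201). The KO call was lost without iGCB KO 2 (adjusted p = 0.0559) or naive KO 2 (adjusted p = 0.0907), and without naive WT 2 the WT value was -0.72 (adjusted p = 0.0241).

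Relb, the subunit that pairs with p52 (chr7:19606217-19629438, minus strand), fell as well, to 38.7, 44.5 and 37.1 CPM in iGCB KO and 28.2, 38.3 and 27.2 CPM in iGCB WT, against 66.9 and 88.4 CPM in naive KO and 77.7 and 105 CPM in naive WT. Groups of the 2 stages did not overlap in either genotype. The log2 fold change was -0.95 in KO (SE 0.21, adjusted p = 0.00305) and -1.55 in WT (SE 0.21, adjusted p = 0.000145). Nfkb2, the gene of p100 and p52 (chr19:46304320-46312385, plus strand), had 346, 376 and 397 CPM in iGCB KO and 282, 407 and 342 CPM in iGCB WT, against 288 and 283 CPM in naive KO and 266 and 232 CPM in naive WT. Its difference did not pass in KO (log2 value 0.38, SE 0.18, adjusted p = 0.0825) and passed in WT (0.46, SE 0.18, adjusted p = 0.0433). The WT call was lost with RLE factors (adjusted p = 0.0756), with only the groups compared (adjusted p = 0.0880), with the replicate block (adjusted p = 0.205) and without any 1 of 8 of the 10 libraries, the exceptions being iGCB KO 2 and iGCB WT 1. Exons of Psd on the other strand share 299 bases (6.52%) of the Nfkb2 exons, and the strand setting of the counting is not given, so part of that count may be shared.

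Together with Rela, the remaining subunit gene, the make-up of subunit transcripts per kilobase differed between stages, with more of Nfkb1 and Nfkb2 and less of Rel in iGCB cells. The size of each share depends on the merged exonic lengths, so it is not a measured share of molecules. Nfkb1 held 27.9% ± 1.10 of the subunit transcripts in iGCB KO and 31.8% ± 2.55 in iGCB WT (SD, n = 3), against 11.6% ± 0.06 in naive KO and 12.2% ± 2.99 in naive WT (SD, n = 2). Rel held 22.2% ± 2.40 and 21.5% ± 1.18 in iGCB KO and iGCB WT, and 40.0% ± 3.79 and 43.8% ± 16.1 in naive KO and naive WT. The share of Nfkb2 was 33.4% ± 1.39 in iGCB KO, 32.2% ± 2.39 in iGCB WT, 23.1% ± 2.08 in naive KO and 18.7% ± 5.93 in naive WT. Rela, the gene of p65, fell in both genotypes, by a log2 fold change of -0.70 in KO (adjusted p = 0.00520) and -0.99 in WT (adjusted p = 0.000656). Relb was the smallest share in every group, at 3.46% ± 0.37 in iGCB WT and 7.81% ± 0.10 in naive WT.

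**Figure D2:**
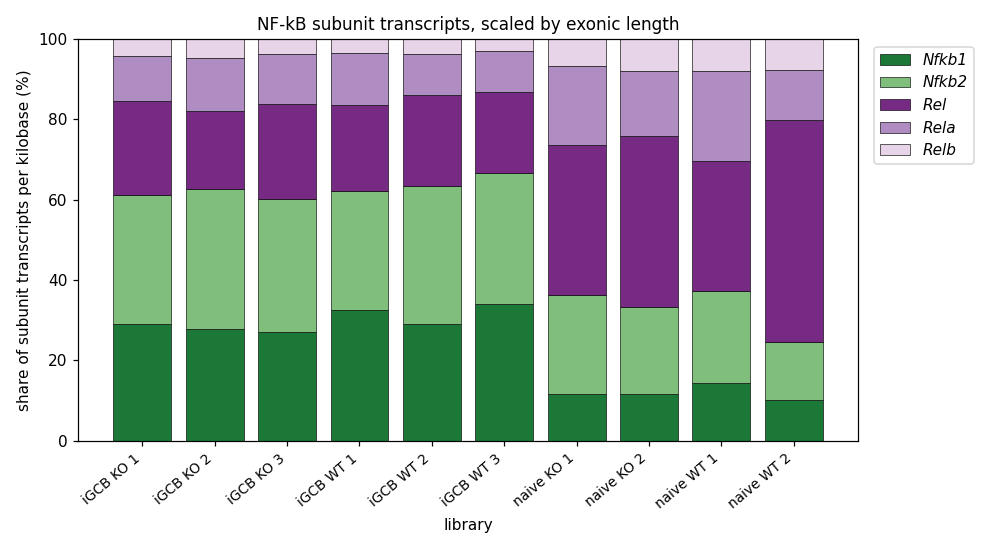
Share in percent of each of the 5 subunit genes in the summed subunit transcripts of a library, after division by exonic length, as stacked bars for the 10 libraries. The Nfkb1 share is larger and the Rel share smaller in all 6 iGCB libraries than in the 4 naive ones, and naive WT 2 has the largest Rel share.

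Nfkbia, the gene of IkBa, which holds NF-kB dimers in the cytoplasm (chr12:55489410-55492647, minus strand), had 131, 160.2 and 127 CPM in iGCB KO and 103, 127 and 113 CPM in iGCB WT, against 138 and 182 CPM in naive KO and 149.5 and 175 CPM in naive WT. Its log2 fold change was -0.20 in KO (SE 0.18, adjusted p = 0.362). In WT it fell by 0.50 on the log2 scale (SE 0.18, adjusted p = 0.0334), a call lost without iGCB WT 1 (adjusted p = 0.102), iGCB WT 3 (adjusted p = 0.0706) or naive WT 2 (adjusted p = 0.166), with no filter on low counts (adjusted p = 0.0925), with only the groups compared (adjusted p = 0.0594) and with the replicate block (adjusted p = 0.122). Tnfaip3, the gene of A20, a ubiquitin-editing enzyme that dampens the pathway (chr10:19000910-19015657, minus strand), had 346, 332 and 334 CPM in iGCB KO and 309, 376 and 279 CPM in iGCB WT, against 337 and 425 CPM in naive KO and 298 and 792 CPM in naive WT. Naive WT 2 alone was high, and the other 9 libraries lay between 279 and 425 CPM. Tnfaip3 did not pass in KO (log2 value -0.18, SE 0.32, adjusted p = 0.647) or WT (-0.76, SE 0.31, adjusted p = 0.0583). Its WT value was 0.11 without naive WT 2 and -1.30 without naive WT 1 (adjusted p = 0.000327). The same library had the highest sum of immediate early markers, 6819 CPM, against 5367 CPM in naive WT 1, 5750 CPM in naive KO 2 and 3949 CPM in naive KO 1, and the part of that response in the Rel and Tnfaip3 values was not tested.

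Slamf1, a homotypic receptor of the SLAM family that T and B cells share (ENSMUSG00000015316, chr1:171767127-171801184, plus strand), fell between naive and iGCB cells of both genotypes. It had 37.5, 35.0 and 48.9 CPM in iGCB KO and 23.5, 24.8 and 21.4 CPM in iGCB WT, against 62.1 and 66.5 CPM in naive KO and 48.7 and 39.5 CPM in naive WT. The log2 fold change of iGCB over naive was -0.67 in KO (SE 0.18, adjusted p = 0.0102) and -0.92 in WT (SE 0.18, adjusted p = 0.00169), the KO call being lost without naive KO 2 (adjusted p = 0.0665). T cells express Slamf1 too, and the T cell marker sums given above were larger in naive libraries, with Cd3e at 4.81 CPM in naive KO and 5.34 CPM in naive WT, against 0.12 CPM in iGCB KO and 0.27 CPM in iGCB WT. Their part in the fall was not tested.

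**Figure D3:**
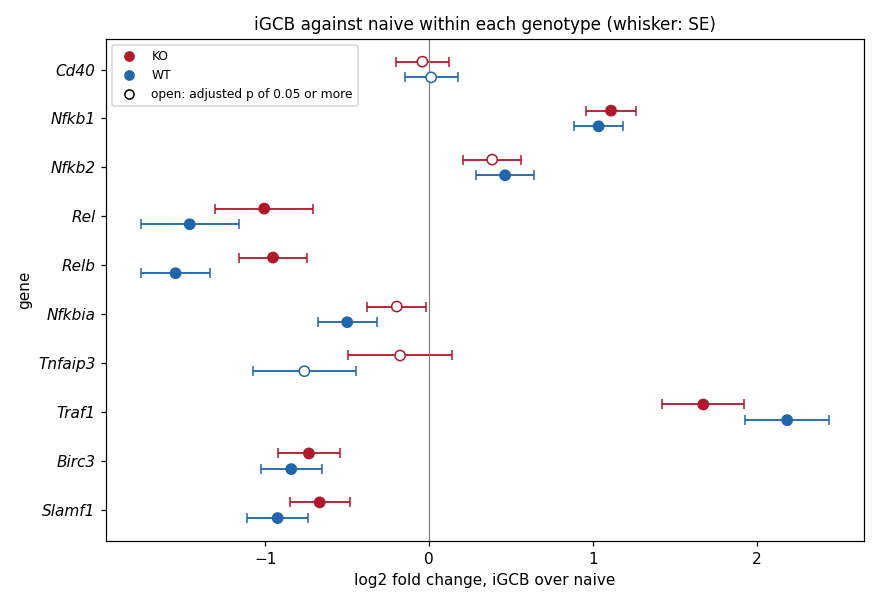
Log2 fold change of iGCB over naive for each member in KO and WT cells with whiskers of 1 SE, filled where the adjusted p of edgeR's quasi-likelihood test is under 0.05. Traf1 and Nfkb1 are the filled points above 0 in both genotypes, Rel, Relb, Birc3 and Slamf1 the filled points below 0 in both, and Cd40 lies at 0.

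The rest of the pathway was split in a similar way. Of 102 other genes listed by role, 100 were tested, and 36 rose and 37 fell from naive to iGCB cells in KO, while 34 rose and 40 fell in WT. Of all genes tested 24.8% were higher and 31.4% lower in KO, and 24.7% and 31.7% in WT. Of 10 receptor genes 6 fell and 0 rose in KO (median log2 fold change -1.84), and 8 fell and 0 rose in WT (median -2.03), beside 31.4% and 31.7% of all genes that were lower. Tlr7 (-0.08 in KO and -0.04 in WT) and Ltbr (-1.22 and -0.63) did not pass in either genotype, nor did Tnfrsf13b (-0.35) and Tnfrsf13c (-0.47) in KO. Tlr9, a sensor of unmethylated DNA, averaged 27.3 ± 8.04 CPM in iGCB KO and 21.9 ± 2.23 CPM in iGCB WT, against 223 ± 0.18 CPM in naive KO and 246 ± 41.0 CPM in naive WT. Its log2 fold change was -3.03 in KO and -3.49 in WT. Cd180, a Toll-like homologue of B cells, fell by 3.00 on the log2 scale in WT, and Tnfrsf1a, a TNF receptor, fell by 3.60 from a low level.

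Malt1 and Prkcb, which act between the antigen receptor and NF-kB, fell in both genotypes. Malt1, a protease, averaged 98.8 ± 13.6 CPM in iGCB KO and 100.3 ± 4.80 CPM in iGCB WT, against 856 ± 369 CPM in naive KO and 1292 ± 647 CPM in naive WT, and its log2 fold change was -3.11 in KO and -3.69 in WT. The kinase gene Prkcb changed by -1.63 in KO and -2.47 in WT. Ikbke, an IkB kinase homologue, rose by 2.84 in KO and 2.68 in WT. Of 18 TRAF, cIAP and ubiquitin adaptor genes, 6 rose and 7 fell in KO and 5 rose and 8 fell in WT. Beside them 24.8% of all genes were higher and 31.4% lower in KO, and 24.7% and 31.7% in WT. Birc2, which encodes cIAP1, rose where its relative Birc3 fell, to 558 ± 40.2 CPM in iGCB KO and 588 ± 47.0 CPM in iGCB WT, against 121 ± 16.1 CPM in naive KO and 124 ± 20.1 CPM in naive WT. The log2 fold change of Birc2 was 2.21 in KO and 2.24 in WT.

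Of 6 other IkB genes 2 rose and 3 fell in KO, and 1 rose and 3 fell in WT. For this list and those below, the shares of all genes were 24.8% higher and 31.4% lower in KO, and 24.7% and 31.7% in WT. The nuclear IkB genes Nfkbid and Nfkbiz changed by -3.92 and -3.79 in WT, while Bcl3, a nuclear IkB that works with p50 and p52, rose by 1.33 in KO and 0.64 in WT. Among 12 genes of deubiquitinases and feedback inhibitors 3 rose and 6 fell in KO and 4 rose and 5 fell in WT, with Tnip3, an A20-binding protein, up by 5.15 and Zc3h12a, an RNase, down at -2.45 in WT. Of 32 known NF-kB targets in B cells 19 rose and 6 fell in KO (median 1.75), where 24.8% of all genes were higher and 31.4% lower. In WT 18 rose and 7 fell (median 0.999), where 24.7% of all genes were higher and 31.7% lower. Ccl22, a chemokine that attracts helper T cells, averaged 2287 ± 139 CPM in iGCB KO and 3013 ± 902 CPM in iGCB WT, against 2.22 ± 1.24 CPM in naive KO and 2.06 ± 0.09 CPM in naive WT. Fas, the costimulator gene Cd80 and the survival gene Bcl2l1 rose by 4.65, 3.98 and 3.73 on the log2 scale in WT. Of the SLAM family and its adaptors 9 of 11 genes were tested, and 3 rose and 3 fell in KO and 3 rose and 4 fell in WT. Slamf7, Cd48 and Slamf6 rose by 2.33, 2.05 and 1.98 in WT. Slamf8, Slamf9, Sh2d1b1 and Cd84 fell there, with log2 fold changes of -3.83, -1.87, -1.72 and -1.62. Slamf8, Slamf9 and Sh2d1b1 were low, with means of 0.089, 1.11 and 0.79 CPM in iGCB WT, against 1.31, 4.07 and 2.59 CPM in naive WT. The myeloid marker sums given above were also larger in naive libraries, and their part in these falls was not tested.

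Between KO and WT iGCB cells 1 member differed. Slamf1 was higher in all 3 iGCB KO libraries, at 37.5, 35.0 and 48.9 CPM, than in the 3 iGCB WT libraries, at 23.5, 24.8 and 21.4 CPM. The difference was 1.74-fold (log2 fold change 0.80, SE 0.17, 95% interval 0.43 to 1.17, adjusted p = 0.0482 by edgeR's quasi-likelihood test), among 0.343% of all genes tested that were higher and 0.923% that were lower. That adjusted p lies close to the threshold, and it rose to between 0.0558 and 0.236 when any 1 of 8 libraries was left out, all 6 iGCB libraries and both naive KO libraries among them, with log2 fold changes of 0.64 to 0.88. The call held without naive WT 1 or naive WT 2 and in all 7 other settings. In the same cells the 10 T cell markers summed to 2.62 to 4.56 CPM in iGCB KO and 4.26 to 5.97 CPM in iGCB WT, and 7 plasma cell markers to 1012 to 1127 CPM in iGCB KO and 2041 to 2222 CPM in iGCB WT. The 8 B cell markers summed to 4968 to 5351 CPM in iGCB KO and 4293 to 4744 CPM in iGCB WT. The 11 myeloid markers summed to 46.7 to 97.3 CPM in iGCB KO and 30.1 to 51.4 CPM in iGCB WT. Of these 11, 9 were above 0 in log2 fold change, as were 47.5% of all genes, and 0 were called. The part of these marker differences in the Slamf1 value was not tested.

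None of the other 9 members passed in iGCB KO against iGCB WT, and their ranges overlapped. Cd40 differed by 0.06 (95% interval -0.26 to 0.38), Nfkb1 by -0.11 (-0.40 to 0.18), Nfkb2 by 0.12 (-0.23 to 0.46), Rel by 0.12 (-0.48 to 0.72), and Birc3 by 0.00 (-0.37 to 0.37) on the log2 scale. Relb had a KO over WT ratio of 1.28 (log2 value 0.36, SE 0.19, adjusted p = 0.610), Traf1 of 1.26 (0.33, SE 0.21, adjusted p = 0.695) and Nfkbia of 1.21 (0.28, SE 0.16, adjusted p = 0.650). Tnfaip3 differed by 0.07 (SE 0.28). Around them, 0 of the 100 other pathway genes passed in either direction with edgeR, and 17 had an unadjusted p under 0.05, as did 9.76% of all genes. Between 1 and 7 of them passed in the 7 other settings. With DESeq2 5 passed, beside 832 of all 21010 genes. With only the groups compared 7 passed, beside 863 of all 15377 genes tested there. With library size only 1 passed, beside 73 genes that were higher and 214 that were lower among 21010.

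Rbck1, Slamf9, Tnfrsf13c and Tnip3 had the smallest adjusted p of those genes. Rbck1, the gene of HOIL-1, a subunit of the linear ubiquitin ligase, had 93.3, 99.4 and 107 CPM in iGCB KO, against 141, 172 and 157 CPM in iGCB WT. The groups did not overlap, and the log2 fold change was -0.65 (SE 0.14, adjusted p = 0.0554). Its adjusted p was under 0.05 in all 7 other settings and when naive WT 1 or naive WT 2 was left out. Slamf9, a low SLAM family gene, had 0.228, 0.184 and 0.0588 CPM in iGCB KO, against 1.69, 0.557 and 1.09 CPM in iGCB WT. Its log2 fold change of -2.80 (SE 0.64, adjusted p = 0.0710) has the opposite sign to that of Slamf1, and it passed in 5 of the 7 other settings. Tnfrsf13c, the gene of the BAFF receptor, had 237, 275 and 242 CPM in iGCB KO, against 137, 162 and 90.7 CPM in iGCB WT (log2 fold change 0.95, SE 0.23, adjusted p = 0.0851), and passed in 5 of the 7 other settings. Tnip3 had 14.1, 17.3 and 20.1 CPM in iGCB KO and 6.83, 9.83 and 6.41 CPM in iGCB WT (log2 fold change 1.16, adjusted p = 0.107). All 6 of the other IkB genes had a log2 fold change above 0, as did 47.5% of all genes, and 0 of them passed. Their median was 0.43, against 0 over all genes, and Nfkbiz was at 0.65 (adjusted p = 0.244).

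**Figure D4:**
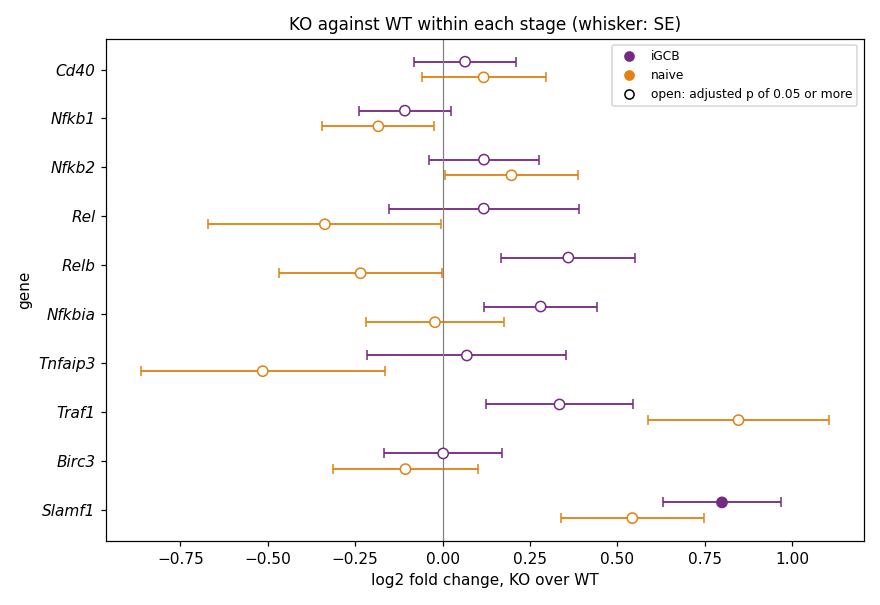
Log2 fold change of KO over WT for each member in iGCB and naive cells with whiskers of 1 SE, filled where the adjusted p of edgeR's quasi-likelihood test is under 0.05. Slamf1 in iGCB cells, at 0.80, is the 1 filled point, and Traf1 in naive cells has the largest value, 0.85, with an open point.

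In naive cells no member passed between KO and WT in edgeR's test, where 0.0143% of all genes were higher and 0.0333% were lower, and 2 members, Traf1 and Slamf1, had an unadjusted p under 0.05, as did 5.55% of all genes. DESeq2 called no member either. The targeted gene Pcbp1 itself missed the threshold in edgeR's test (log2 fold change -5.59, SE 0.82, adjusted p = 0.0561). A member that did not pass in naive cells may therefore still differ. Traf1 had 93.0 and 86.4 CPM in naive KO, against 41.7 and 58.1 CPM in naive WT, a difference of 1.80-fold (log2 fold change 0.85, SE 0.26, adjusted p = 0.573). Slamf1 had 62.1 and 66.5 CPM in naive KO, against 48.7 and 39.5 CPM in naive WT (log2 fold change 0.54, SE 0.20, adjusted p = 0.783). Both naive KO libraries lay above both naive WT libraries for these genes, and also for Cd40 and Nfkb2, while Nfkb1 lay below. With 2 libraries per group such separation carries little weight, and the share of all genes that show it was not counted. Cd40, Nfkb2 and Nfkb1 had unadjusted p of 0.522, 0.325 and 0.275 in edgeR's test.

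Within the female pair and the male pair of naive libraries, the log2 ratio of KO to WT was 1.16 and 0.57 for Traf1 and 0.35 and 0.75 for Slamf1. Rel and Tnfaip3 turned direction between the pairs, with 0.22 in the female and -0.66 in the male pair for Rel and 0.18 and -0.90 for Tnfaip3, the male pair being the one that holds naive WT 2. Of the 100 other pathway genes 0 passed in naive cells by edgeR or DESeq2. Rbck1 was also the adaptor gene with the smallest p there, at 69.0 and 54.9 CPM in naive KO, against 84.3 and 79.7 CPM in naive WT (log2 fold change -0.40, SE 0.17, adjusted p = 0.849). The kinase gene Prkcb had the lowest p among the kinases (log2 fold change -0.57, SE 0.18, adjusted p = 0.636).

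The KO effect was compared between stages in the same model, and 0 members differed by it, beside 0.0143% of all genes with a higher and 0.019% with a lower KO effect in iGCB than in naive cells. No member had an unadjusted p under 0.05 in that test. For Slamf1 the iGCB minus naive difference of the KO effects was 0.26 (SE 0.26, 95% interval -0.32 to 0.84, adjusted p = 0.998). For Traf1 it was -0.51 (SE 0.33, 95% interval -1.24 to 0.22, adjusted p = 0.933), and for Relb 0.59 (SE 0.30, 95% interval -0.07 to 1.26, adjusted p = 0.882). The comparisons between stages and between genotypes share libraries, so their values are given side by side and were not correlated.

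Genes whose levels followed each member most closely were taken from 9494 genes by Pearson correlation of log2 CPM over the 10 libraries, a description without a p in which the contrast of stages carries most of the variation. Nfkb1 was most like Chek1, Cenpn and Lipg (r of 0.996 for each), and Relb was most like Rfx1 (0.990), Atg12 and Ube2d3. Traf1 was followed by Adap1 (0.991), Echdc3 and Sowahc, Birc3 by Dis3l2 (0.987), Ccdc59 and Paxx, and Rel by Mkln1 (0.979), Dpm1 and Cry2. Nfkbia had Isy1 (0.971), Churc1 and Babam2, Slamf1 had Tead2 (0.965), Elk3 and Suox, and Tnfaip3 had Lemd3 (0.956), Nampt and Jmy. Nfkb2 was most like Lta (0.954), the lymphotoxin gene and itself a listed NF-kB target, with Bloc1s5 next. Cd40, which varied least, had Arfrp1 (0.892), Mrpl48 and Use1.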

How the data were processed

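Raw counts per gene symbol were deposited by the authors as whole numbers, made with featureCounts on the mm10 build per the submitters' processing notes, from total RNA and an mRNA library kit per the labels' protocols. Which aligner, annotation and strand mode they used is not given in the sources used here. Odd values made up 17.7% to 26.9% of counts from 1 to 20 in a library, so mates appear to have been counted singly and a count is not an independent fragment. The table held 55492 symbols, 24219 of them 0 in every library, in 10 libraries of 33400672 to 63576147 counts, and columns were matched to samples by name.

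Genes kept by filterByExpr (minimum count 10) were scaled with TMM factors and fitted by edgeR 4.0.16 in R 4.3.3 with a quasi-likelihood model of 1 mean per group over all 10 libraries, which left 6 residual degrees of freedom. All p-values are two-sided and were adjusted by the Benjamini-Hochberg method across the 21010 genes tested, at a threshold of 0.05. SE is the absolute log2 fold change over the square root of F, and 95% intervals use the moderated degrees of freedom. CPM were computed on TMM-scaled totals. In simulated data for iGCB KO against iGCB WT, run on 20025 genes, 19.6% of genes changed 2-fold and 53.3% of those changed 4-fold were recovered, with 5.56% of calls false. The changed genes were drawn at random, and apart from them all groups had the same means, without a difference between stages. Exonic lengths and positions came from GENCODE M21 (mm10), which held 96.0% of the symbols, and promoters from RefSeq (GRCm38.p6).

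The members and gene lists were chosen with earlier results of these data known. Named genes were the members, Pcbp1, up to 4 genes per list and comparison with the largest fold change past the threshold or else the 1 with the smallest p, and 3 genes per member for likeness. Some results that this rule takes are not reported here.

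What the libraries of a pair have in common is not stated, although the series design counts them in pairs. Deviations of same-numbered KO and WT libraries correlated at 0.67 in naive cells and at 0.54, -0.18 and 0.02 in iGCB cells over 7379 genes. The numbers of the naive libraries also matched sex by Xist. The main fit used the numbers as pairs at neither stage, so the difference between the naive pairs stayed in its residual spread. Alternatives were DESeq2 1.42.0, library size only, RLE factors, no filter, only the groups compared, a replicate block, each library left out and, added after seeing the data, a sex term from Xist above 100 CPM. For comparisons of genotype the replicate block joined same-numbered KO and WT libraries of a stage. For comparisons of stage it joined same-numbered naive and iGCB libraries of a genotype.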

Additional observations from a re-analysis of the deposited data

How the results depend on the processing

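The count of all genes called for KO against WT changed with the fit. In naive cells it was 10, and it came to 171 with DESeq2, 242 with no filter on low counts, 0 with only the groups compared, 31 with the replicate block, 57 with a sex term, and 3 to 44 with 1 library left out. In iGCB cells it was 266, against 832, 841, 863, 589 and 640 in the same order and 41 to 489 with 1 library left out. For the difference of KO effects it was 7, against 242 with DESeq2, 373 with no filter, 74 with the replicate block, 108 with a sex term, and 0 to 65 with 1 library left out. With no filter 1 member was higher in naive KO cells, Traf1 (adjusted p = 0.0266), beside 126 of 31273 genes. Between stages the main fit called 11811 of 21010 genes in KO and 11845 in WT, so calls of members there are common. With 1 library left out, 0 to 1 members were higher in iGCB KO and 2 to 4 were lower in iGCB KO than in naive KO cells. The count of members higher in iGCB WT than in naive WT was 2 to 3 and of members lower was 4 to 6.

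The replicate block ended the stage calls of Nfkb2 (0.45, adjusted p = 0.205) and Nfkbia (-0.50, adjusted p = 0.122) in WT and no other call of a member. Deviations of the naive and iGCB libraries that it joined by number correlated at -0.14 and 0.15 in WT and at -0.14 and -0.23 in KO. At number 1 it joined a female naive library with a male iGCB library, so this block does not stand for a known pairing. Tnfaip3 passed between stages in WT with DESeq2 (adjusted p = 0.0234), RLE factors (0.0422), no filter (0.00326) and a sex term (0.00147), and in KO with a sex term (-0.63, adjusted p = 0.0389).

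Signs turned under settings that kept all libraries for the following values. In naive KO against WT, Nfkbia was 0.11 with library size only, 0.0042 with no filter and 0.026 with only the groups compared, and Birc3 was 0.024 with library size only, which moved the median of all genes from -0.05 to 0.07. In iGCB KO against WT, Birc3 was -0.0077 with DESeq2, -0.0077 with RLE factors, -0.035 with no filter and -0.0084 with the replicate block. For iGCB WT against naive WT, Cd40 was -0.076 with DESeq2, -0.076 with RLE factors and -0.070 with the replicate block. For the difference of KO effects, library size only gave -0.061 for Nfkb1 and -0.022 for Birc3. The cause of these shifts was not tested.

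With 1 library left out, signs also turned within these ranges of the log2 value. In naive KO against WT they were -0.83 to 0.39 for Rel, -0.24 to 0.15 for Nfkbia, -1.06 to 0.35 for Tnfaip3 and -0.24 to 0.028 for Birc3. In iGCB KO against WT they were -0.030 to 0.14 for Cd40, -0.0056 to 0.26 for Nfkb2, -0.024 to 0.20 for Tnfaip3 and -0.11 to 0.14 for Birc3. Between stages they were -0.073 to 0.033 for Cd40, -0.37 to 0.016 for Nfkbia and -0.32 to 0.00048 for Tnfaip3 in KO, and -0.065 to 0.11 for Cd40 and -1.30 to 0.11 for Tnfaip3 in WT. For the difference of KO effects they were -0.15 to 0.023 for Cd40, -0.20 to 0.062 for Nfkb2, -0.28 to 0.95 for Rel, -0.28 to 1.13 for Tnfaip3 and -0.026 to 0.25 for Birc3. The turns of Rel and Tnfaip3 in naive KO against WT and in the difference of KO effects came without naive WT 2.

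Every member had at least 805 counts in each library. In the simulated data for iGCB KO against iGCB WT 19.6% of genes changed 2-fold were recovered. Those genes were drawn at random from all levels of expression, so that share is not the recovery for genes as abundant as the members.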
